A study of Mus musculus with 12 samples.

Results

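Kit, Kitl, Cxcr4 and Cxcl12 encode a pair of receptors and their ligands through which the embryonic gonad and its surroundings signal to primordial germ cells (PGCs), from which eggs and sperm later form. They were taken by symbol as the genes of these receptor and ligand pairs, and all 4 were found among the 12845 genes measured in the gonads of mouse embryos at E13.5. Each receptor was followed in the germ cells and each ligand in the gonadal soma, and both were also read in the other population.

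Pregnant females had been mated to Oct4GFP males (strain given as Oct4GFPxICR), so that all embryos came from a cross carrying a green fluorescent protein (GFP) reporter that is active in germ cells. Sorting on GFP separated positive cells, the PGCs, from negative cells, the soma, and each of the 4 groups (PGC and soma of male and of female embryos) has 3 of the 12 libraries. The title of the series names hypertranscription, in which cells make more RNA across most genes, and external control RNA (ERCC) was added in a fixed amount for each number of cells. The soma is every GFP-negative cell of the dissected gonad and holds many cell types, and no treatment was given. The labels do not say whether the 3 libraries of a group came from separate litters or pools. The p-values therefore rest only on the spread between these libraries. The fits estimated that spread partly from other genes, and wholly so on the values scaled per cell.

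KIT is a receptor tyrosine kinase on the germ cell surface, and its ligand KITL (stem cell factor, Steel factor) is made by the somatic cells around the germ cells. KITL promotes survival, proliferation and motility of mouse PGCs and exists as a membrane-bound and as a soluble form. CXCR4 is a G protein-coupled chemokine receptor on migrating PGCs, and its ligand CXCL12 (SDF-1) guides them to the genital ridges and supports their survival.

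Kit lies on the plus strand at chr5:75574916-75656722 (ENSMUSG00000005672.12), Kitl on the plus strand at chr10:100015630-100100416 (ENSMUSG00000019966.18), Cxcr4 on the minus strand at chr1:128588199-128592293 (ENSMUSG00000045382.6) and Cxcl12 on the plus strand at chr6:117168535-117181367 (ENSMUSG00000061353.11), in GRCm38 with GENCODE vM21. Their exons cover 8911, 5911, 1808 and 8176 bases, and 0 other annotated genes overlap any of them. The promoter windows below are shown because the 4 genes were read here for how their transcripts are divided between populations. Each runs from 250 bases before to 50 bases after the start of the gene in RefSeq (GRCm38.p6), 5′ to 3′ on the gene's own strand, at chr5:75574737-75575036 (plus strand, the first of 2 windows listed for Kit), chr10:100015571-100015870 (plus), chr1:128592250-128592549 (minus) and chr6:117168285-117168584 (plus). Capitals mark matches to GGGCGG, the core of a GC box, and to TATAAA, the TATA box, on either strand.
Kit: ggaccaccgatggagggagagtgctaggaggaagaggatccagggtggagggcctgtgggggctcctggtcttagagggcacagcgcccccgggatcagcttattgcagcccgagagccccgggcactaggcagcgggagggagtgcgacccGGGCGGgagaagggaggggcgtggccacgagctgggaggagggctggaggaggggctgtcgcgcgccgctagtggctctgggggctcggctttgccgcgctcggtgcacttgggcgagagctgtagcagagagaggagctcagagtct
Kitl: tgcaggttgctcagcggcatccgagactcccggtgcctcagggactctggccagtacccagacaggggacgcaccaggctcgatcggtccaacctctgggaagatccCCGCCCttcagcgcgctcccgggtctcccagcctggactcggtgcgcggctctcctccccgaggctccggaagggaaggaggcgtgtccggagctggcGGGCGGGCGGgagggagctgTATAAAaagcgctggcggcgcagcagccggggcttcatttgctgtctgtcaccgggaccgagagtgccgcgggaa
Cxcr4: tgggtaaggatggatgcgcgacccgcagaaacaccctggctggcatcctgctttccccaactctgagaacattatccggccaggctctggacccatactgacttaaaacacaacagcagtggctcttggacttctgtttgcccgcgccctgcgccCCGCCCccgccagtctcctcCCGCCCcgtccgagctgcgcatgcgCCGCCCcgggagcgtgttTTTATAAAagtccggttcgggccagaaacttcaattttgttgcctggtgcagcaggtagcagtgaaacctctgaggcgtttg
Cxcl12: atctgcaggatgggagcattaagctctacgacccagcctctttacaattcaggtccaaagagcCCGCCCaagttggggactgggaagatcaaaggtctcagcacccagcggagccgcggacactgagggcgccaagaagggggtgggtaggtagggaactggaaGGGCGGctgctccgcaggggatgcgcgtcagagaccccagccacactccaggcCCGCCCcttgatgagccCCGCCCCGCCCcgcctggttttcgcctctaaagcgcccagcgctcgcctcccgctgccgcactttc

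GGGCGG matched once in the Kit window, beginning 98 bases before the start, in 3 places in the Kitl window (of which a pair overlap each other), in 3 places in the Cxcr4 window and in 5 in the Cxcl12 window (of which a pair overlap), while 35.9% of 27025 such windows, 1 per gene, held it. TATAAA was found 25 bases before the start of Kitl and, on both strands and overlapping itself, 32 and 30 bases before the start of Cxcr4. It had 0 matches in the Kit and Cxcl12 windows, against a match in 14.2% of all windows. ACGTG, the core of a hypoxia response element, had 0 matches in these 4 windows and at least 1 in 19.7% of all. The share of G and C was 69.0% for Kit, 68.7% for Kitl, 59.3% for Cxcr4 and 64.7% for Cxcl12, each above the median of 52.7% over all windows. These matches describe the letters of the windows and were not tested for binding.

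The values are gene-level and merge the isoforms of Kitl. GENCODE lists an 84-base exon, exon 6 of the 10 of transcript Kitl-202 and skipped in Kitl-201, which is known to encode the stretch where the membrane protein is cut to release soluble KITL. It is shown because the transcripts that keep it and those that skip it cannot be told apart in the levels that follow. The exon lies at chr10:100080857-100080940 on the plus strand and no part of it is marked.
Kitl exon 6: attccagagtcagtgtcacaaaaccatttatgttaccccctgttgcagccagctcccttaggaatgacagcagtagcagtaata

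Reads recovered from the deposited values numbered between 6454322 and 24791414 per library, and the median gene of a library had between 202 and 894 reads. CPM below are the usual scaling of reads to the total of the library in the table, and follow the share of a library. Cell number units are the same reads scaled to the effective library size that the authors' cell number normalization implies, and follow the output per cell. Summed CPM of 8 germ cell markers was 3273 to 4819 in the 6 PGC libraries, 10.8 to 17.5 in male soma and 20.2 to 160 in female soma, so the sorted populations carried the markers of their labels. The soma held summed levels of supporting lineage markers (Wt1, Gata4, Nr5a1, Lhx9, Nr0b1, Gadd45g) of 489 to 1309 CPM, of stromal markers of 8548 to 11912 CPM and of erythroid markers of 3383 to 29541 CPM. On the cell number scale the median gene of male soma replicate 3 stood at a log2 value of 5.25, apart from the 4.33 and 4.29 of replicates 1 and 2, so the per-cell differences that use male soma are given with and without it, and without it the median of all genes was 1.74 higher per cell in male PGCs than in male soma.

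Kit was the germ cell side of its pair in both sexes. It took 143, 241 and 186 CPM in male PGC replicates 1, 2 and 3 and 57.6, 76.4 and 79.3 CPM in male soma. Female PGCs held 252, 248 and 308 CPM and female soma 59.7, 76.6 and 59.0 CPM. Every PGC library was above every soma library, the female PGC libraries were above the male ones, and the soma libraries of the sexes overlapped. The group means were 190 ± 49.0 CPM in male PGC, 71.1 ± 11.8 in male soma, 269 ± 33.8 in female PGC and 65.1 ± 9.95 in female soma (SD, n = 3 each), 2.68-fold higher in male PGCs and 4.14-fold higher in female PGCs than in soma of the same sex. On the read depth log2 values, Kit was higher in PGCs by 1.19 ± 0.14 in males (SE, limma adjusted p = 1.51e-06) and by 1.61 ± 0.14 in females (adjusted p = 7.49e-08).

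**Figure D1:**
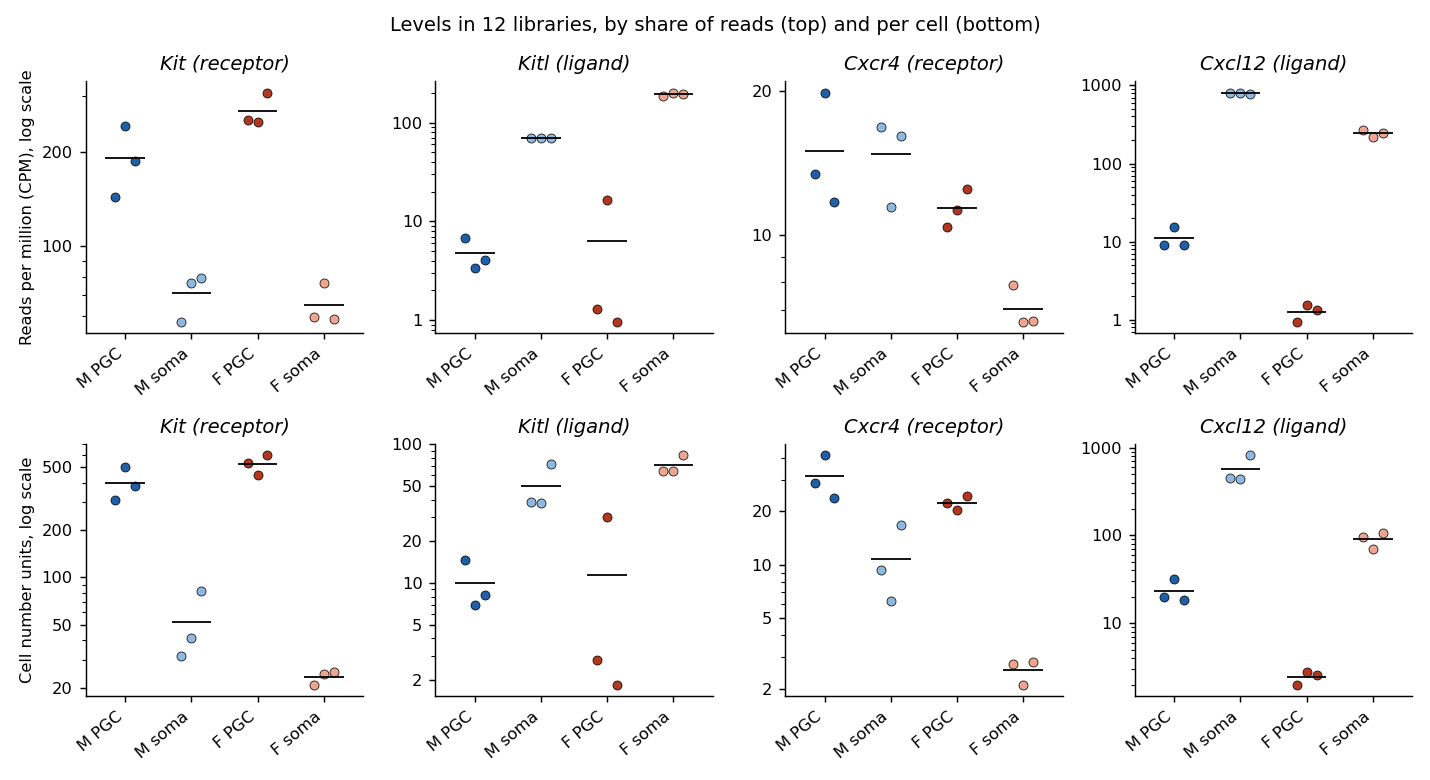
Level of each gene in the 12 libraries on log axes, as share of reads (CPM, upper row) and as cell number units (lower row), with 1 point per library and a line at the mean of each group of 3 (M male, F female). Kit is highest in PGCs (190 CPM in males, 269 in females), both ligands are highest in soma, and Cxcr4 by CPM differs little between male PGCs and male soma (15.0 and 14.8).

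Per cell the gap in Kit was wider. Its cell number units were 309, 501 and 378 in male PGC, 31.7, 41.3 and 82.5 in male soma, 536, 447 and 597 in female PGC and 20.9, 24.4 and 25.2 in female soma. The PGC libraries did not overlap the soma libraries, the male and female PGC libraries overlapped each other, and all 3 male soma libraries were above the 3 female ones. Means of 396 ± 97.0 against 51.8 ± 27.0 in males and 526 ± 75.4 against 23.5 ± 2.30 in females (SD, n = 3) gave 7.64-fold and 22.4-fold more Kit per cell in PGCs. The log2 difference was 3.03 ± 0.28 in males (limma adjusted p = 4.09e-26) and 4.48 ± 0.28 in females (adjusted p = 1.54e-55), where the median of all genes was already 1.42 and 2.36 higher per cell in PGCs. The cell number fit used the spread of genes of like level, an SD of 0.344 in place of the 0.417 of Kit itself. Over the alternatives the limma adjusted p ran up to 8.37e-06 in males and 1.67e-07 in females. Without male soma replicate 3 the male difference was 3.42, beside a median of 1.74.

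The soma was not devoid of Kit. Soma libraries held 30.3% to 41.7% of the mean Kit CPM of male PGCs and 21.9% to 28.4% of that of female PGCs. The 8 germ cell markers together stood at 0.228% to 0.371% of their PGC level in male soma and at 0.589% to 4.68% in female soma. Pou5f1, one of the 8 and the gene of the reporter, stood at 0.0744% to 0.202% and 0.558% to 3.17%. Cells were sorted on that reporter, so low Pou5f1 in soma follows in part from the sort. Kit transcripts in the soma were thus at a higher share of their PGC level than the summed germ cell markers were in every soma library. This holds for the sum and not for each marker. Nanos3, low in both female groups, took 1.40 to 1.89 CPM in female soma and 0.620 to 4.88 in female PGC. KIT is also known from mast cells and blood progenitors: of 8 markers for these, 5 were measured, with summed levels of 112 to 135 CPM in male soma, 309 to 342 in female soma, 12.6 to 22.4 in male PGC and 255 to 316 in female PGC. Gata2, a transcription factor of blood progenitors, made up most of the sums in soma and in female PGC, at 76.7 to 104 CPM in male soma, 172 to 219 in female soma and 248 to 305 in female PGC. The mast cell enzymes Cpa3 and Cma1 had 0 reads in all 6 PGC libraries. In soma Cpa3 took 3.71 to 8.70 CPM in males and 40.6 to 83.8 in females, and Cma1 0.109 to 1.49 and 8.34 to 41.0. Endothelial markers (9 of 10 measured) summed to 120 to 201 CPM in male soma and 159 to 189 in female soma. Their part in the somatic Kit level was not tested, and in sorted bulk samples fewer cells of a type and less RNA per cell cannot be told apart.

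**Figure D2:**
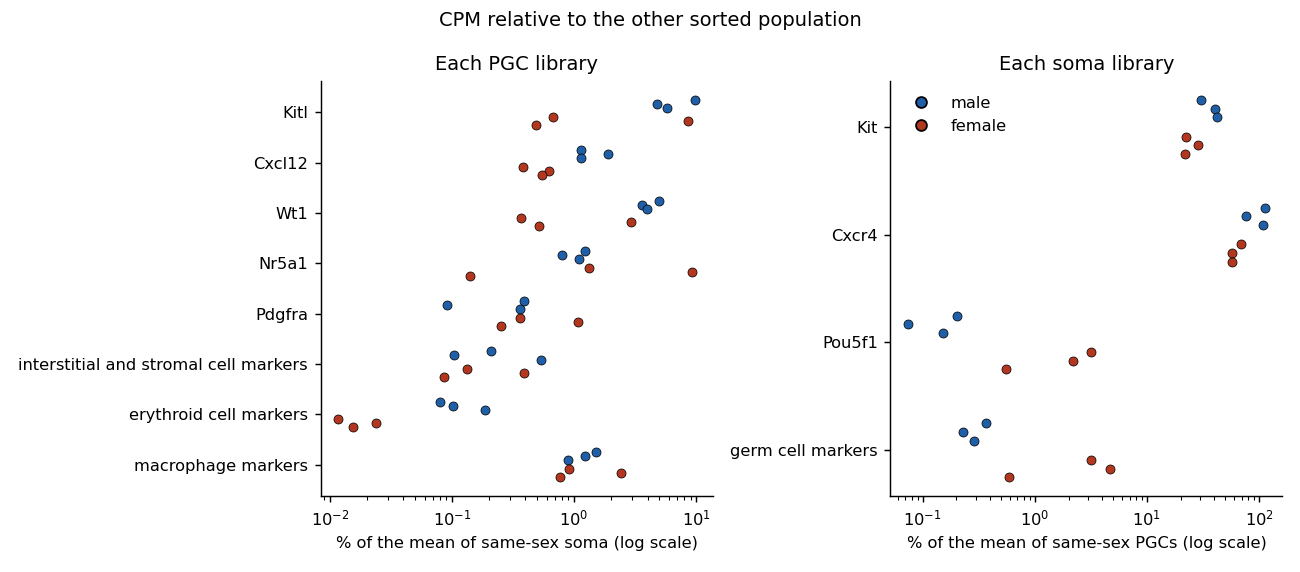
Left, CPM of the ligands and of somatic markers in each PGC library as a percentage of the mean of same-sex soma; right, CPM of the receptors and of germ cell markers in each soma library as a percentage of the mean of same-sex PGCs (log axes, 1 point per library, blue male, red female). Kit and Cxcr4 in soma lie between 21.9% and 112%, far to the right of the summed germ cell markers (0.228% to 4.68%). In the left panel 1 female PGC library stands to the right of the others for Kitl (8.53%) and Nr5a1 (9.32%).

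Cxcr4, the other receptor, did not separate germ cells from soma in males by share of reads. It took 13.4, 19.9 and 11.7 CPM in male PGC and 16.8, 11.5 and 16.1 CPM in male soma, which overlap. In females it took 10.4, 11.3 and 12.5 CPM in PGC and 7.89, 6.60 and 6.61 CPM in soma, with every PGC library above every soma library. The means were 15.0 ± 4.30 and 14.8 ± 2.90 CPM in PGC and soma of males and 11.4 ± 1.05 and 7.03 ± 0.743 CPM in PGC and soma of females (SD, n = 3), a ratio of PGC to soma of 1.01 in males and 1.62 in females. The read depth log2 difference was 0.08 ± 0.14 in males (SE, limma adjusted p = 0.616), which did not pass, and 0.40 ± 0.14 in females (adjusted p = 0.0176). The female call was lost without female PGC replicate 3 (0.36, adjusted p = 0.0538), and the reads behind it numbered 43 to 71 in female soma and 73 to 233 in female PGC. Over 21 alternative settings the adjusted p of the female difference ran from 1.07e-05 to 0.131.

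Counted per cell, Cxcr4 was higher in PGCs of both sexes. Its cell number units were 29.0, 41.3 and 23.8 in male PGC, 9.27, 6.21 and 16.8 in male soma, 22.2, 20.4 and 24.2 in female PGC and 2.76, 2.11 and 2.82 in female soma. No PGC library overlapped a soma library, and female soma was the lowest group. PGCs held 2.92-fold more in males and 8.70-fold more in females, with log2 differences of 1.63 ± 0.40 (limma adjusted p = 7.74e-05) and 3.12 ± 0.40 (adjusted p = 1.66e-14). These stand beside shifts of 1.42 and 2.36 in the median of all genes, and with each library centred on its median gene the male difference was 0.42 and no longer passed (adjusted p = 0.115, alternatives from 2.66e-07 to 0.115). Leaving out male soma replicate 3 gave 2.01 in males, beside a median of 1.74.

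Kitl, the KIT ligand, lay in the soma. It took 70.1, 70.5 and 69.9 CPM in male soma and 185, 202 and 196 CPM in female soma, against 6.84, 3.36 and 4.07 CPM in male PGC and 1.30, 16.6 and 0.956 CPM in female PGC. Every soma library was above every PGC library, and the female soma libraries were all above the male ones. The means of 70.2 ± 0.341 CPM in male soma and 4.75 ± 1.84 in male PGC gave a 14.8-fold excess in soma, and those of 194 ± 8.37 in female soma and 6.28 ± 8.92 in female PGC gave 31.0-fold (SD, n = 3). The female ratio rests on female PGC replicate 2, and without that library the PGC mean was 1.13 CPM and the ratio 172-fold. On the read depth values Kitl was lower in PGCs by −2.85 ± 0.47 in males (SE, limma adjusted p = 6.6e-05) and by −4.47 ± 0.47 in females (adjusted p = 8.06e-07).

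Among PGC libraries the high Kitl value of female PGC replicate 2 came with somatic markers. That library held 107 Kitl reads, against 29 and 10 in female PGC replicates 1 and 3. It also held 8.68 CPM of Wt1 (1.07 and 1.53 in the others), 6.35 CPM of Nr5a1 (0.895 and 0.0956) and 4.34 CPM of Foxl2 (1.25 and 0.956). Its 6 supporting lineage markers summed to 5.60% of their level in female soma, against 1.42% and 1.35%, and their part in its Kitl level was not tested. Without it, Kitl in females was lower in PGCs by −5.30 on the read depth values. Among male PGC libraries replicate 1 had the most Kitl, with 143 reads against 82 and 72, and its Sertoli cell markers summed to 132 CPM against 62.4 and 57.4. Amh, the Sertoli cell hormone, took 67.6 CPM in it against 30.6 and 27.7. Kitl stood at 4.79% to 9.74% of its male soma level in the male PGC libraries, and the part of other cell types in it was not tested.

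Per cell Kitl kept its direction with a smaller ratio. Its cell number units were 14.8, 6.99 and 8.25 in male PGC, 38.7, 38.1 and 72.7 in male soma, 2.77, 29.9 and 1.85 in female PGC and 64.8, 64.4 and 83.7 in female soma. The soma libraries were above the PGC libraries of their sex, and those of male and female soma overlapped. Soma exceeded PGCs 4.98-fold in males and 6.17-fold in females, the latter 30.7-fold without female PGC replicate 2, with log2 differences of −2.32 ± 0.35 (limma adjusted p = 1.1e-10) and −3.69 ± 0.35 (adjusted p = 4.99e-25), in the opposite direction to the median of all genes. The cell number fit replaced each gene's own spread by that of genes of like level, which for Kitl meant an SD of 0.431 in place of its own 1.14, and with no such intensity trend the adjusted p was 0.0102 in males and 0.00031 in females (alternatives up to 0.0454 and 0.00507). Without male soma replicate 3 the male difference was −2.01, and without female PGC replicate 2 the female one was −4.91.

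Cxcl12, the CXCR4 ligand, was the most unequal of the 4 genes between the populations. It took 811, 801 and 786 CPM in male soma and 273, 220 and 248 CPM in female soma. In PGCs it took 9.18, 15.3 and 9.09 CPM in males and 0.940, 1.55 and 1.34 CPM in females, the latter from 21, 10 and 14 reads. None of the 4 groups overlapped another, in the order male soma, female soma, male PGC, female PGC. Mean levels of 799 ± 12.5 and 247 ± 26.6 CPM in male and female soma and of 11.2 ± 3.54 and 1.28 ± 0.310 CPM in male and female PGC (SD, n = 3) put the soma 71.5-fold above PGCs in males and 193-fold in females. The read depth log2 difference was −4.93 ± 0.15 in males (SE, limma adjusted p = 2.97e-12) and −5.52 ± 0.15 in females (adjusted p = 6.26e-12).

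The same order was seen per cell for Cxcl12. Its cell number units were 447, 433 and 818 in male soma, 95.4, 70.1 and 106 in female soma, 19.8, 31.7 and 18.5 in male PGC and 2.00, 2.79 and 2.59 in female PGC. Again no group overlapped another. The soma exceeded PGCs 24.3-fold in males and 36.7-fold in females, with log2 differences of −4.58 ± 0.31 (limma adjusted p = 2.66e-47) and −5.14 ± 0.31 (adjusted p = 2.49e-59). Here too the spread was that of genes of like level. Over the alternatives the limma adjusted p ran up to 4.55e-08 in males and 1.61e-08 in females. Without male soma replicate 3 the male difference was −4.28.

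Of the 4 genes, Kit passed as higher and Kitl and Cxcl12 as lower in male PGCs on the read depth values, where 39.1% of all 12845 genes passed as higher and 43.7% as lower at an adjusted p of 0.05. In females Kit and Cxcr4 passed as higher and Kitl and Cxcl12 as lower, against 38.7% and 42.3% of all genes. On the cell number values Kit and Cxcr4 passed as higher and Kitl and Cxcl12 as lower in both sexes, against 64.0% of genes higher and 19.8% lower in males and 77.2% higher and 11.5% lower in females. A call in either direction was therefore common by share of reads, and per cell a rise was the usual result and a fall the rarer one. A change of 1 log2 unit in reads changed the read depth values by 0.291 in genes under 100 mean reads and by up to 0.776 in genes above, so their log2 differences are not the log2 of the CPM ratios beside them.

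**Figure D3:**
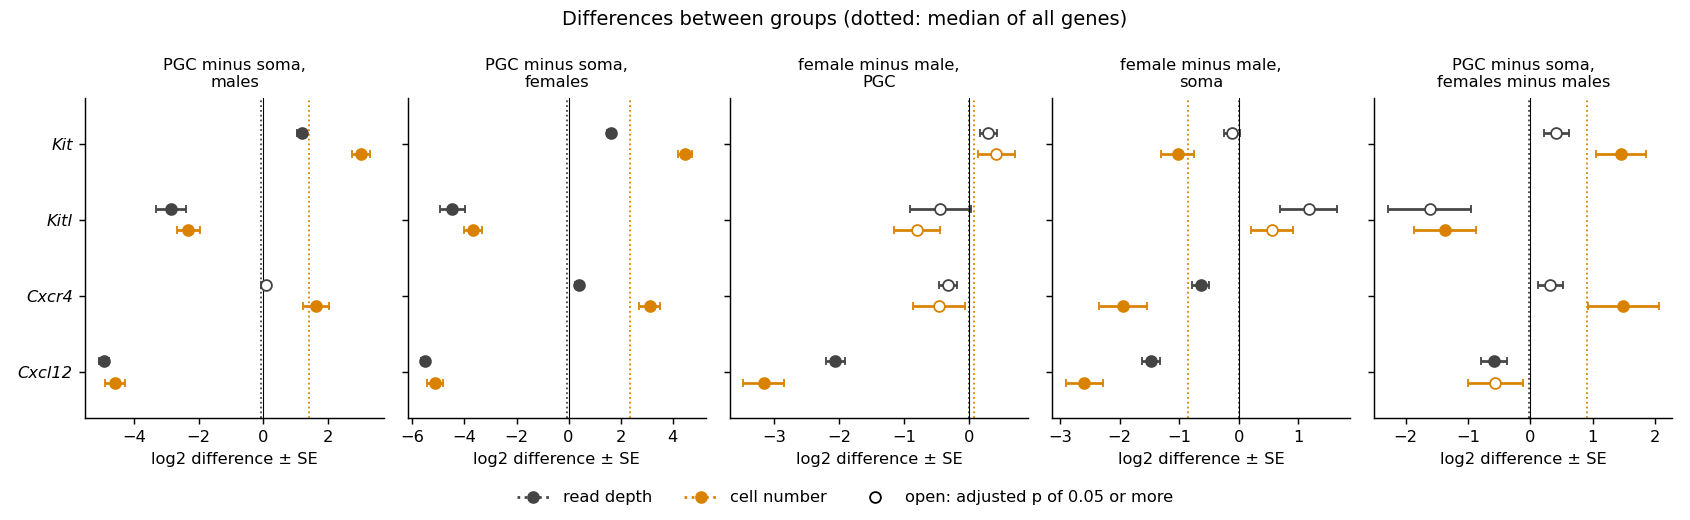
Log2 difference ± SE of each gene in the 4 pairwise comparisons and in the difference between sexes, with read depth values in grey and cell number values in orange. Open points did not pass an adjusted p of 0.05 and dotted lines mark the median of all genes; the ligands lie to the left in PGC minus soma (Cxcl12 −4.93 and −5.52 by read depth), while the cell number medians of all genes lie at 1.42 in males and 2.36 in females.

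Between the sexes, Cxcl12 passed in both populations on both scales. Male soma held 3.24-fold more Cxcl12 than female soma by CPM and 6.26-fold more per cell, and male PGCs 8.76-fold and 9.47-fold more than female PGCs. The female minus male log2 difference in soma was −1.47 ± 0.15 by read depth (SE, limma adjusted p = 6.93e-06) and −2.60 ± 0.31 by cell number (adjusted p = 6.79e-15), or −2.30 without male soma replicate 3. In PGCs it was −2.06 ± 0.15 (adjusted p = 5.36e-08) and −3.17 ± 0.31 (adjusted p = 2.25e-22). Beside the PGC difference stand the somatic markers in male PGCs: Cxcl12 was at 1.14% to 1.91% of its male soma level there, the 6 supporting lineage markers at 1.42% to 2.17%, Wt1 at 3.58% to 4.99%, Amh of Sertoli cells at 6.35% to 15.5% and 8 stromal markers at 0.104% to 0.538%. Among male PGC libraries replicate 2 had the most Cxcl12, at 15.3 CPM against 9.18 and 9.09 in replicates 1 and 3. Of these somatic markers, its supporting lineage sum (18.2 CPM), Wt1 (5.41) and stromal sum (9.84) were the lowest of the group. Its Amh (30.6) lay between the others. In female PGCs Cxcl12 was at 0.381% to 0.628% of its female soma level. The 6 supporting lineage markers stood there at 1.35% to 5.60%, Wt1 at 0.366% to 2.95% and the 8 stromal markers at 0.0865% to 0.386%. The part of other cell types in the difference was not tested.

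Kitl went the other way in the soma by share of reads. Female soma held 2.77-fold more Kitl than male soma by CPM, with no overlap, and the read depth log2 difference was 1.18 ± 0.47 (SE, limma adjusted p = 0.0901), which did not pass in the fit of all 12 libraries. The spread in that fit is shared with the PGC groups, in which female PGC replicate 2 stood apart. With the 6 soma libraries alone the same difference had an adjusted p of 2.84e-06, and without female PGC replicate 2 it was 7.64e-05 (alternatives from 1.81e-06 to 0.199). Per cell the libraries overlapped, at 1.42-fold and a log2 difference of 0.57 ± 0.35 (adjusted p = 0.137), which without male soma replicate 3 was 0.88 and did not pass either. In PGCs Kitl differed between the sexes by −0.44 ± 0.47 by read depth (adjusted p = 0.439) and by −0.80 ± 0.35 by cell number (adjusted p = 0.0541). The group means ran the other way, 1.32-fold higher in female PGCs by CPM and 1.15-fold higher per cell, with female PGC replicate 2 above every male library and the other female libraries below. Without female PGC replicate 2 the log2 differences were −1.27 (adjusted p = 2.4e-05) and −2.03 (adjusted p = 6.52e-06); the alternatives for these ran from 2.4e-05 to 0.973 and from 6.52e-06 to 0.934.

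Cxcr4 was lower in female than in male soma. Male soma held 2.11-fold more by CPM, with no overlap, and the female minus male log2 difference was −0.64 ± 0.14 by read depth (SE, limma adjusted p = 0.00466) and −1.95 ± 0.40 by cell number (adjusted p = 2.11e-05), where the median of all genes was −0.86. Without male soma replicate 3 the latter was −1.57, beside a median of −0.54. In PGCs the sexes overlapped, at −0.32 ± 0.14 (adjusted p = 0.0624) and −0.46 ± 0.40 (adjusted p = 0.375).

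Kit did not pass between the sexes in PGCs. Female PGCs held 1.41-fold more by CPM without overlap, at a log2 difference of 0.30 ± 0.14 by read depth (SE, limma adjusted p = 0.0637) and of 0.43 ± 0.28 by cell number (adjusted p = 0.218). Without male PGC replicate 2, the male library with most Kit, the read depth difference was 0.46 and passed (adjusted p = 0.006, alternatives from 0.006 to 0.310). In soma Kit differed by −0.12 ± 0.14 by read depth (adjusted p = 0.601) and by −1.02 ± 0.28 by cell number (adjusted p = 0.00148), near the −0.86 of the median gene, and by −0.14 with each library centred on its median (adjusted p = 0.652, alternatives from 4.45e-06 to 0.671). It was −0.63 by cell number without male soma replicate 3, and passed.

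In counts, 0 of the 4 genes passed as higher and Cxcl12 alone as lower in female against male PGCs by read depth, where 32.8% of all genes passed as higher and 32.5% as lower. By cell number the same was true, against 24.3% and 17.7% of all genes. In female against male soma 0 passed as higher and Cxcr4 and Cxcl12 as lower by read depth, against 13.3% and 11.0% of all genes, and 0 as higher and Kit, Cxcr4 and Cxcl12 as lower by cell number, against 2.86% and 63.6%. The makeup of the soma differed between the sexes as well: supporting lineage markers summed to 1245 to 1309 CPM in males and 489 to 690 in females (Nr5a1 486 to 586 and 57.7 to 76.4, Gata4 347 to 399 and 117 to 158, but Wt1 131 to 162 and 224 to 352), pregranulosa markers to 151 to 195 and 422 to 497, fetal Leydig cell markers to 3373 to 4706 and 13.0 to 14.3, and erythroid markers to 3383 to 8578 and 17586 to 29541. Wnt4 made up most of the pregranulosa sum in male soma, at 116 to 168 CPM against 131 to 205 in female soma. Foxl2 (0.766 to 1.74 and 51.5 to 71.2), Fst (2.29 to 4.24 and 85.6 to 109) and Irx3 (0.565 to 2.07 and 62.3 to 82.2) were low in males. Sertoli cell markers summed to 707 to 833 CPM in male and 42.2 to 52.8 in female soma. The part of this makeup in the differences of the ligands was not tested.

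The size of the PGC to soma difference was also compared between the sexes. By read depth it differed for Cxcl12 only, at −0.59 ± 0.21 (females minus males, SE, limma adjusted p = 0.0274), against 27.9% of all genes higher and 28.9% lower. That call was lost without male PGC replicate 2 (−0.40), male soma replicate 3 (−0.57), female PGC replicate 1 (−0.46) or female soma replicate 1 (−0.52). For Kit it was 0.42 ± 0.19 (adjusted p = 0.0778), for Kitl −1.62 ± 0.67 (adjusted p = 0.054) and for Cxcr4 0.32 ± 0.20 (adjusted p = 0.183). Without female PGC replicate 2 the Kitl value was −2.45 and passed (adjusted p = 2.64e-06, alternatives from 2.64e-06 to 0.139). By cell number Kit (1.45 ± 0.40, adjusted p = 0.0011) and Cxcr4 (1.49 ± 0.57, adjusted p = 0.0213) were higher and Kitl (−1.37 ± 0.50, adjusted p = 0.0159) was lower in the female difference, against 42.8% of all genes higher and 5.16% lower and a median of 0.91, while Cxcl12 did not pass (−0.56 ± 0.44, adjusted p = 0.283). The Kitl call was lost in 9 of 20 alternative settings, over which its value ran from −2.59 to −0.62 and its adjusted p up to 0.426. Without male soma replicate 3 the cell number values were 1.06 for Kit and 1.11 for Cxcr4, which passed, −1.67 for Kitl, which did not, and −0.86 for Cxcl12, which did, beside a median of 0.58. With each library centred on its median gene, Kit (0.46), Kitl (−2.36) and Cxcr4 (0.50) did not pass, and Cxcr4 did not pass either without male PGC replicate 3 or female soma replicate 2 (adjusted p = 0.0766 and 0.0563).

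Ligand and receptor can be set side by side per length, as reads per kb of exon scaled as CPM. By this measure soma held 11.9 ± 0.0577 of Kitl in males against 21.3 ± 5.50 of Kit in PGCs, a ratio of ligand to receptor of 0.556 (0.437 to 0.742 over pairs of libraries). In females it held 32.9 ± 1.42 of Kitl against 30.2 ± 3.80 of Kit, a ratio of 1.09 (0.906 to 1.23). The ratio was higher in females in every pair of libraries. Cxcl12 in soma stood at 97.8 ± 1.53 against 8.31 ± 2.38 of Cxcr4 in PGCs in males, a ratio of 11.8 (8.74 to 15.3), and at 30.2 ± 3.25 against 6.32 ± 0.582 in females, a ratio of 4.78 (3.88 to 5.78), here with the male pairs all higher. The ratios carry no test.

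Per cell the ligands were lower against their receptors, as follows from the scaling. It lowers any soma gene against any PGC gene of the same sex by a like factor, so the fall is not particular to these pairs. In cell number units per kb, Kitl in soma against Kit in PGCs was 8.43 ± 3.35 against 44.5 ± 10.9 in males and 12.0 ± 1.86 against 59.1 ± 8.47 in females, ratios of 0.190 (0.115 to 0.354) and 0.203 (0.163 to 0.282) that overlap. Cxcl12 against Cxcr4 was 69.2 ± 26.7 against 17.4 ± 4.97 in males, a ratio of 3.99 (2.32 to 7.59), and 11.1 ± 2.24 against 12.3 ± 1.07 in females, a ratio of 0.897 (0.639 to 1.15). Leaving out male soma replicate 3, the male ratios per cell were 0.146 for the Kit pair and 3.10 for the Cxcr4 pair. With the longest coding transcript as the length in place of all exons, the ratios by share of reads were 0.342 and 0.670 for the Kit pair and 17.1 and 6.93 for the Cxcr4 pair in males and females, and the female Cxcr4 pair per cell moved from below to above 1 (1.30). With the shortest coding transcript, which for Kitl has 564 bases, the Kit pair stood at 3.41 and 6.68 by share of reads and at 1.16 and 1.25 per cell. Whether ligand or receptor is the higher therefore depends on the length used in 5 of the 8 ratios. For the Kit pair in males by share of reads and in both sexes per cell, it changed only with that 564-base Kitl transcript. That transcript has 5 exons, against 9 in Kitl-201 and 10 in Kitl-202.

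**Figure D4:**
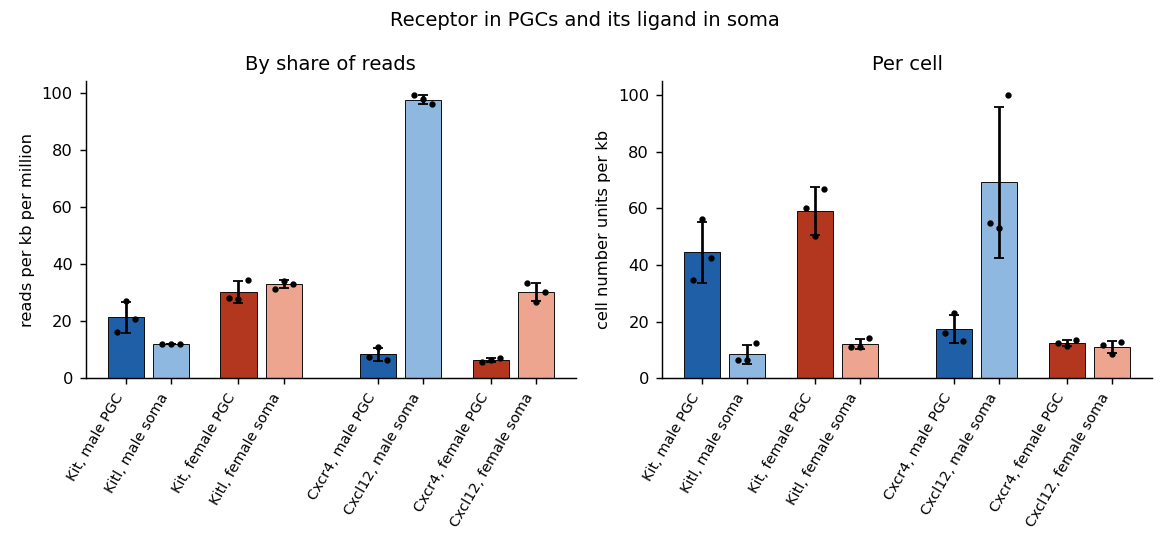
Mean level per kb of exon of each receptor in PGCs and of its ligand in soma, by share of reads (left, CPM per kb) and per cell (right, cell number units per kb), with SD bars over 3 libraries and 1 point per library. Cxcl12 in male soma is the tallest bar in both panels (97.8 and 69.2), and Kit in PGCs stands above Kitl in soma per cell in both sexes (44.5 against 8.43 and 59.1 against 12.0).

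Ranked per length within each group, Kit exceeded 79.2% of genes in male PGC and 85.9% in female PGC, and 50.5% and 46.9% in male and female soma. Cxcl12 exceeded 97.3% of genes in male soma and 88.0% in female soma, and 24.5% and 6.40% in PGCs. Kitl exceeded 63.4% in male soma and 89.5% in female soma, and 19.2% and 17.4% in PGCs. Cxcr4 stayed in the middle and lower range, above 57.4% and 51.2% of genes in PGC and soma of males and 47.2% and 28.0% in PGC and soma of females.

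Over the 12 libraries, which fall into the 4 groups, the read depth values of Kit and Kitl had a Pearson r of −0.936 and those of Cxcr4 and Cxcl12 of −0.112, given as a description. Kitl and Cxcl12 had an r of 0.86. The genes nearest to Kit in pattern were Ppp1r7 (0.987), Kntc1 (0.985) and Wasl (0.985). Nearest to Kitl were Kctd14 (0.993), Amhr2 (0.991), the receptor of anti-Müllerian hormone, and Wt1 (0.983), a transcription factor of the gonadal supporting lineage. Nearest to Cxcr4 were Sqle (0.934) and Fasn (0.918), enzymes of sterol and fatty acid synthesis, and Grhpr (0.934), and nearest to Cxcl12 were Pofut2 (0.997), Lasp1 (0.995) and Sri (0.994).

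Downstream of KIT, all 43 listed genes of its signalling (adaptors, PI3K, AKT, RAS and MAPK, phosphatases) were measured. In males 15 were higher and 20 lower in PGCs by read depth, against 39.1% and 43.7% of all genes (median −0.12, against −0.06 for all genes), and in females 16 were higher and 19 lower, against 38.7% and 42.3% (median −0.10, against −0.05). Pik3cd and Gab2 were named for the largest differences between the sexes in this list, so their p-values are no independent test of those differences. Pik3cd, a catalytic subunit of PI3K, took 347 ± 3.12 CPM in male PGC, 31.2 ± 1.75 in male soma, 46.0 ± 6.03 in female PGC and 28.7 ± 4.09 in female soma (SD, n = 3). It rose in male PGCs by 2.86 ± 0.09 and in female PGCs by 0.51 ± 0.09 (limma adjusted p = 3.01e-12 and 7.36e-05), and these differences themselves differed by −2.35 ± 0.12 (adjusted p = 1.33e-08). Gab2, an adaptor of receptor tyrosine kinases, showed the opposite: 12.2 ± 2.12 CPM in male PGC, 101 ± 7.80 in male soma, 96.2 ± 15.9 in female PGC and 69.5 ± 8.63 in female soma. It fell in male PGCs (−2.17 ± 0.12, adjusted p = 4.68e-10) and rose in female PGCs (0.36 ± 0.12, adjusted p = 0.0105), with a difference between the sexes of 2.53 ± 0.16 (adjusted p = 5.88e-08).

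The PI3K regulatory subunit Pik3r1 was lower in PGCs of both sexes, at 9.19 ± 2.97 and 10.8 ± 4.86 CPM in male and female PGC against 143 ± 10.9 and 255 ± 51.2 in soma (−2.97 ± 0.21 and −3.59 ± 0.21, limma adjusted p = 9.68e-09 and 1.92e-09). Src, a kinase recruited by KIT, was lower as well (−2.74 ± 0.18 and −2.54 ± 0.18, adjusted p = 3.51e-09 and 1.07e-08). Akt1, the kinase downstream of PI3K, took 69.9 ± 18 CPM in male PGC and 522 ± 17.2 in male soma, and 137 ± 20.9 and 382 ± 22.3 in females. Its read depth differences were −2.23 ± 0.11 and −1.19 ± 0.11, while per cell it was lower in male PGCs (−1.30 ± 0.28) and higher in female PGCs (0.94 ± 0.28, adjusted p = 0.000852), there by less than the median of all genes. Mapk3 (ERK1) did not pass by read depth (0.17 ± 0.10 and 0.08 ± 0.10). Per cell, 30 of the 43 were higher and 7 lower in male PGCs, against 64.0% and 19.8% of all genes (median 1.35, against 1.42). In female PGCs 36 were higher and 2 lower per cell, against 77.2% and 11.5% (median 2.30, against 2.36). The list thus moved with the median of all genes. With each library centred on its median gene, 20 were higher and 17 lower in males and 20 higher and 18 lower in females.

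Of the 43 genes listed for CXCR4 signalling, 40 were measured. By read depth 12 were higher and 26 lower in male PGCs, against 39.1% and 43.7% of all genes (median −0.58, against −0.06), and 11 were higher and 25 lower in female PGCs, against 38.7% and 42.3% (median −0.39, against −0.05). Ackr3, the scavenging receptor of CXCL12, was lower in PGCs, at 35.9 ± 2.06 and 28.7 ± 4.04 CPM in male and female soma against 1.05 ± 0.634 and 0.929 ± 0.691 in PGCs (−3.17 ± 0.22 and −3.01 ± 0.22, limma adjusted p = 8.32e-09 and 1.9e-08). Mif, which encodes another ligand of CXCR4, was higher in PGCs, at 352 ± 53.7 CPM in male PGC and 196 ± 29.8 in female PGC against 129 ± 3.70 and 130 ± 22.9 in soma (1.24 ± 0.11 and 0.47 ± 0.11, adjusted p = 1.36e-07 and 0.00171). Hmgb1, whose protein forms a complex with CXCL12, differed by −0.03 ± 0.07 in males (adjusted p = 0.687) and by 0.15 ± 0.07 in females (adjusted p = 0.0465). The G protein subunit Gng2 was lower in PGCs (−2.88 ± 0.17 and −3.60 ± 0.17).

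Grk5, a kinase that desensitizes G protein-coupled receptors, took 107 ± 7.29 CPM in male soma and 10.8 ± 1.42, 26.5 ± 3.16 and 23.5 ± 5.94 CPM in male PGC, female PGC and female soma. It was lower in male PGCs (−2.36 ± 0.12, limma adjusted p = 4.34e-10), did not pass in females (0.14 ± 0.12, adjusted p = 0.316) and differed between the sexes in that difference by 2.50 ± 0.18 (adjusted p = 1.26e-07). Ptk2b (PYK2), a kinase activated by chemokine receptors, followed sex more than population, at 52.2 ± 4.87 and 61.7 ± 10.9 CPM in male PGC and soma and 9.37 ± 2.17 in female PGC (female minus male −1.88 ± 0.14 in PGCs and −1.61 ± 0.14 in soma, adjusted p = 6.26e-08 and 1.41e-06). Per cell, 22 of the 40 were higher and 12 lower in male PGCs, against 64.0% and 19.8% of all genes (median 0.71, against 1.42). In female PGCs 27 were higher and 9 lower per cell, against 77.2% and 11.5% (median 1.87, against 2.36). With each library centred on its median gene, 13 were higher and 22 lower in males and 14 higher and 19 lower in females.

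**Figure D5:**
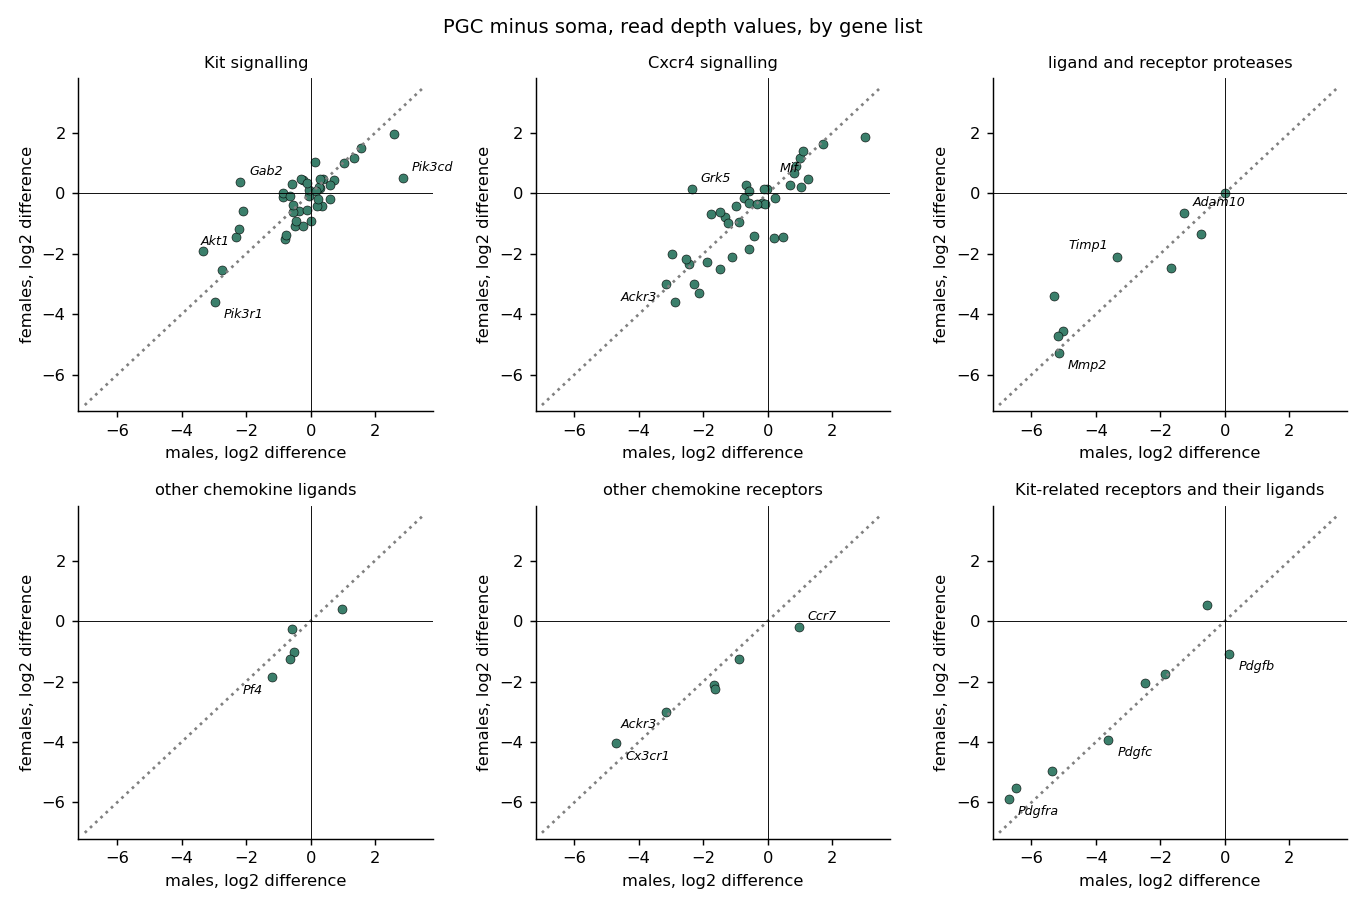
PGC minus soma log2 difference on the read depth values in males (horizontal) and females (vertical) for each measured gene of 6 lists, with the dotted line at equal differences and some of the named genes labelled. Genes of the protease and KIT-related lists lie mostly below and left of 0 (medians −3.34 and −3.05 in males), and Pik3cd, Gab2 and Grk5 lie off the dotted line.

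Of 9 proteases and inhibitors that act on these ligands and receptors, 0 were higher and 8 lower in PGCs of each sex by read depth (medians −3.34 and −2.47, against −0.06 and −0.05). Of all genes, 39.1% were higher and 43.7% lower in males, and 38.7% and 42.3% in females. Mmp2, a metalloprotease able to cleave CXCL12, took 598 ± 9.66 and 544 ± 103 CPM in male and female soma against 5.97 ± 0.951 and 4.97 ± 1.32 in PGCs (limma adjusted p = 1.33e-12 and 6.26e-12). The metalloprotease inhibitors Timp2 and Timp3 had differences of −5.29 ± 0.23 and −5.16 ± 0.18 in males and of −3.41 ± 0.23 and −4.71 ± 0.18 in females. Timp1 was higher in male than in female soma (47.6 ± 4.35 and 11.9 ± 2.12 CPM, −1.48 ± 0.16, adjusted p = 1.32e-05). Dpp4, which trims CXCL12, took 4.83 ± 1.61 CPM in male and 22.7 ± 3.98 in female soma (1.41 ± 0.18, adjusted p = 7.57e-05). Adam17, which sheds membrane proteins including KIT, took 84.4 to 91.7 CPM as means of the 4 groups and differed by 0.01 ± 0.07 in males and 0.00 ± 0.07 in females. Its relative Adam10 was lower in PGCs (−1.27 ± 0.16 and −0.67 ± 0.16, adjusted p = 5.61e-06 and 0.00194). Per cell 1 was higher and 6 lower in males, against 64.0% and 19.8% of all genes. In females 2 were higher and 6 lower per cell, against 77.2% and 11.5%.

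Few other chemokine genes were among those analysed. Every gene analysed reached at least 5.07 CPM in 3 libraries. The direction of a gene near that level, as Pf4 and Ccr7 are, can therefore be set by the group that let it in. The counts of higher and lower chemokine genes share this limit. Of 34 other chemokine ligands 5 were measured, 1 higher and 4 lower in male PGCs and 1 higher and 3 lower in female PGCs by read depth, against 39.1% of all genes higher and 43.7% lower in males and 38.7% and 42.3% in females. Pf4 had 0 reads in the 3 male PGC libraries and took 3.29 ± 0.673 CPM in male soma and 11.5 ± 6.47 in female soma. Ccl9 (−0.64 ± 0.15 and −1.25 ± 0.15) and Cx3cl1 (−0.52 ± 0.18 and −1.02 ± 0.18) were lower in PGCs of both sexes, and Ccl27a was lower in males (−0.57 ± 0.13). Of 22 other chemokine receptors 6 were measured, 1 higher and 5 lower in male PGCs and 0 higher and 5 lower in female PGCs, against the same shares of all genes. Cx3cr1, a receptor of macrophages, took 38.0 ± 4.54 and 77.1 ± 6.53 CPM in male and female soma, where 8 macrophage markers summed to 168 to 237 and 341 to 566 CPM. Ccr7 was the receptor higher in male PGCs, at 6.07 ± 0.755 CPM against 0.971 ± 0.515 in male soma (0.96 ± 0.14, limma adjusted p = 1.63e-05), with 0.578 ± 0.626 CPM in female PGC.

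Of 11 listed receptors related to KIT and their ligands 8 were measured. By read depth 0 were higher and 7 lower in male PGCs, against 39.1% and 43.7% of all genes (median −3.05, against −0.06). In female PGCs 1 was higher and 7 lower, against 38.7% and 42.3% (median −2.99, against −0.05). The 1 higher in female PGCs was Pdgfa, a ligand of PDGF receptors, at 33.4 ± 4.08 CPM against 19.9 ± 1.76 in female soma (0.51 ± 0.16, limma adjusted p = 0.00788), and in males it was lower, at 13.8 ± 4.72 against 26.0 ± 6.59 (−0.55 ± 0.16, adjusted p = 0.00484). Pdgfra, a receptor of stromal cells, took 942 ± 22.4 and 493 ± 140 CPM in male and female soma against 2.63 ± 1.53 and 2.77 ± 2.18 in PGCs (limma adjusted p = 2.52e-10 and 1.36e-09), and Pdgfrb 453 ± 21.5 and 282 ± 73.7 against 1.27 ± 0.682 and 2.02 ± 1.22. Of their ligands, Pdgfc took 25.6 ± 3.19 CPM in male and 87.6 ± 19.2 in female soma (1.37 ± 0.20, adjusted p = 0.000235), and Pdgfb did not pass in males (0.14 ± 0.19, adjusted p = 0.502) and was lower in female PGCs (−1.07 ± 0.19, adjusted p = 0.000126). Cd74, Rgs1, Pik3r5, Flt3, Il34 and Flt3l were not analysed here.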

How the data were processed

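Each of 12 libraries (3 per group) was assigned by its sample title. Per the labels' protocols, 4 µL of diluted ERCC mix went into each 10000 cells' worth of RNA, and directional messenger RNA libraries were prepared from 8 to 13 ng. Per the submitters' processing notes, the tools were Trim Galore 0.4.0 and TopHat2 2.0.9 (build mm10), HTSeq 0.6.1p1, and R 3.3.0 with edgeR 3.14.0, limma 3.28.14 and DESeq2 1.12.3, with no role stated. Strand setting, annotation and filter: not given in the sources used here.

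The authors deposited log2 values for 12845 genes in a pair of tables, normalized to cell number (an abbreviation read so) or to read depth. Reads were recovered from the cell number values (100% whole within 0.001 reads); how the read depth values were transformed was not stated. The lowest gene reached 5.07 CPM in 3 libraries. Libraries of a group differed by more than counting noise, with a chi-square of 5.45 to 31.0 per degree of freedom.

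limma 3.58.1 (R 4.3.3) was fitted to all genes and libraries on the deposited log2 values, using group means and an intensity trend, and p-values were adjusted by Benjamini-Hochberg over 12845 genes (threshold 0.05). Its variance prior had 5.51 degrees of freedom for read depth and infinitely many for cell number. The fits were tested on simulated data with independent noise in each gene and library. Such data hold no shift of a whole library, as seen in male soma replicate 3, so they do not check the p-values against it. CPM, cell number units and ratios came from pandas 2.3.3 with numpy 2.4.6 under Python 3.11.15, and plots from matplotlib 3.10.9. GENCODE vM21 located 12409 genes by current and 387 by older symbol, and promoter windows came from RefSeq.

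The members, gene lists and markers were chosen with earlier results of these data known. Named genes are the 4 members, the 2 of each list with the highest level per length, with the largest difference between PGC and soma and with the largest difference between sexes, other ligands, receptors and proteases of the pairs, and the 3 genes nearest to each member in pattern. The p-values of list genes named for a large difference come from the same values that picked them. Alternatives were leaving out each library or the lowest 25% of genes, median centring, quantile normalization, a replicate block, other variance settings, array weights, only the groups compared and voom on the recovered reads. Transcript length alternatives and leaving out libraries in the pair ratios were added after seeing the data.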

Additional observations from a re-analysis of the deposited data

Results flagged for a closer look

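These 4 results were picked out because the PGC minus soma difference itself differed between the sexes in a test of that difference (females minus males, limma on all genes). By read depth it was −0.59 for Cxcl12, whose PGC minus soma difference was −4.93 in males and −5.52 in females. By cell number it was 1.45 for Kit (3.03 in males, 4.48 in females), 1.49 for Cxcr4 (1.63 and 3.12) and −1.37 for Kitl (−2.32 and −3.69). The median of all genes shifted by 0.91 in the same cell number comparison, which the values of Kit and Cxcr4 include. With each library centred on its median gene, the Kit, Cxcr4 and Kitl values were 0.46, 0.50 and −2.36 and none of the 3 passed. The Kitl call was lost in 9 of 20 alternative settings, and the Cxcl12 call by read depth without each of 4 libraries, male soma replicate 3 among them.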

How the results depend on the processing

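Of 832 recomputed values for the 40 differences of the 4 genes, 762 kept their direction and their side of an adjusted p of 0.05, and 21 of the 40 differences did so under every alternative. By median centring, read depth Cxcr4 in male PGCs against soma was 0.32 and passed, Cxcr4 between the sexes in PGCs −0.35 and passed, and the difference between the sexes of Kitl −1.66 and passed. The cell number values lost the calls of Cxcr4 in males (0.42), Kit between the sexes in soma (−0.14) and the differences between the sexes of Kit (0.46), Kitl (−2.36) and Cxcr4 (0.50), and gained that of Cxcl12 (−1.55). Quantile normalization let pass, by read depth, Cxcr4 in males (0.64), Kit (0.41) and Cxcr4 (−0.41) between the sexes in PGCs, Kitl between the sexes in soma (1.33) and the differences between the sexes of Kit (0.49) and Kitl (−1.93). By cell number it let pass Kit in PGCs (0.52) and Cxcl12 (−1.17) and lost Kit in soma (−0.12) and the difference of Kit (0.64). Array weights, whose estimation stopped before convergence, turned Cxcr4 in males by read depth to −0.0148, which did not pass on either side, and let pass Kit in PGCs (0.31 and, by cell number, 0.52) and the differences of Kit (0.52) and Kitl (−1.81) by read depth and of Cxcl12 (−0.82) by cell number. voom on the recovered reads let pass Kit in PGCs (0.52), Kitl in soma (1.47) and the differences of Kit (0.69) and Kitl (−2.70) and lost Cxcr4 in females (0.64) and in soma (−0.96). With only the groups compared, Kitl in soma (1.18, read depth) and Kit in PGCs (0.43, cell number) passed. Without the lowest 25% of genes the difference of Kitl (−1.62, read depth) and Kitl in PGCs (−0.80, cell number) passed. With no intensity trend Cxcr4 in PGCs passed by read depth (−0.32), and with it or with a robust variance prior the Kitl difference by cell number kept its value (−1.37) and did not pass. The cause was not tested.

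Leaving out 1 library changed a call or a sign in 15 of the 40. By read depth the ranges were −0.065 to 0.18 for Cxcr4 in males, negative without male PGC replicate 2 (−0.065) or male soma replicate 2 (−0.0261), 0.36 to 0.45 for Cxcr4 in females, 0.16 to 0.46 for Kit, −1.27 to 0.0213 for Kitl (positive without female PGC replicate 3) and −0.42 to −0.17 for Cxcr4 between the sexes in PGCs, and 1.16 to 1.20 for Kitl in soma. The differences between the sexes ran from 0.27 to 0.57 for Kit, −2.45 to −1.16 for Kitl, 0.22 to 0.47 for Cxcr4 and −0.70 to −0.40 for Cxcl12. By cell number they ran from −2.59 to −0.62 for Kitl, 1.11 to 1.83 for Cxcr4 and −0.86 to −0.32 for Cxcl12, and between the sexes in PGCs from 0.26 to 0.61 for Kit and −2.03 to −0.0521 for Kitl.

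The labels do not say whether the numbers of the replicates pair the libraries. Over 18 pairs each, deviations of same-numbered libraries of different groups correlated at −0.361 to 0.0715 by read depth and −0.282 to 0.0334 by cell number. With 3 libraries per group these values can neither show nor exclude a pairing. With a replicate block, Kit between the sexes in PGCs (0.30) and its difference between the sexes (0.42) passed by read depth and Kitl in PGCs (−0.80) by cell number, and no other call of the 4 genes changed.

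With the longest coding transcript as the length, the Kit pair ratios were 0.342 and 0.670 by reads and 0.117 and 0.125 per cell, and the Cxcr4 pair ratios 17.1 and 6.93 by reads and 1.30 per cell in females. With the shortest they were 3.41, 6.68, 1.16 and 1.25 for the Kit pair and 25.6, 10.4, 8.66 and 1.95 for the Cxcr4 pair. Of 2400 recomputed list counts 2159 stayed within 1.5 times, and of the 241 others 77 fell under median centring or quantile normalization. Without the lowest 25% of genes fewer list genes were tested, which alone took the other chemokine receptors lower in PGCs from 5 to 0. Depth limits the low groups, with 10 to 107 reads of the ligands in female PGCs and 43 to 71 of Cxcr4 in female soma.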
